A study of Mus musculus with 2 samples.

Results

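The complement genes described here are 7 components known to be made by myeloid cells, namely the C1q chain genes C1qa, C1qb and C1qc, the central component C3, the alternative pathway genes Cfb and Cfp, and the terminal component C6. They were picked by symbol in the deposited table, each matched 1 row of 55401, and all 7 averaged at least 1 FPKM over both libraries (fragments per kilobase of exon, scaled to library depth), as did 12526 genes in all, called the genes kept. RNA was sequenced from myeloid-derived suppressor cells (MDSCs), tumour-induced cells of neutrophil and monocyte kind known for restraining T cells. They came from C57BL/6 mice aged 8 weeks that bore MC38 tumours (a murine colon adenocarcinoma line), were isolated by MACS (magnetic cell sorting) and then spent 24 h in co-culture with MC38 cells. One genotype was LysM-cre, Mettl3fl/fl (1 library), with Cre recombinase driven from the lysozyme 2 locus in macrophages and neutrophils alike, and the other was Mettl3fl/fl without Cre (1 library). Both genotypes thus carried the floxed allele, only the first carried Cre, and an effect of Cre itself and of the deletion cannot be told apart. The labels do not say how many mice went into a library.

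Complement is a set of plasma proteins that coat and perforate microbes and damaged cells. C1q binds antibody on a target and starts the classical pathway by activating the proteases C1r and C1s, which cleave C4 and C2. All pathways meet at the cleavage of C3, which the alternative pathway amplifies with factor B (Cfb), factor D (Cfd) and the stabiliser properdin (Cfp), and the terminal pathway then builds a pore from C5 to C9, with C6 binding C5b first. The liver makes most plasma complement, while C1q is known as a product of macrophages and dendritic cells, and properdin of neutrophils and monocytes.

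The libraries held 59393864 counts (labelled LysM-cre) and 59506878 counts (floxed control). With 1 library a genotype there is no replicate check and no p-value, so every ratio below compares these libraries and not the genotypes. Mettl3, the targeted m6A methyltransferase gene, measured 3.92 FPKM in the library labelled LysM-cre, against 4.16 FPKM in the floxed control (ratio of depth-scaled counts, CPM, 0.945, exact 95% interval 0.876 to 1.02). The gene-level value did not separate the genotypes beyond counting error, and the label is therefore used as a name. Neutrophil markers were present as the MDSC label asks, with all 14 of the list kept and S100a9, a calcium-binding alarmin, with 5477 FPKM in the library labelled LysM-cre and 6078 FPKM in the control. Macrophage markers were present too, with 19 of 20 kept and Csf1r, the receptor for macrophage growth factor, at 481 FPKM (labelled LysM-cre) and 456 FPKM (control). These are bulk libraries, so fewer cells of a type and less RNA per cell cannot be told apart.

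As a group the complement components stood slightly above the control in the library labelled LysM-cre. They took 0.387% of its counts, against 0.350% in the control, a ratio of summed CPM of 1.11 (95% interval 1.10 to 1.11, counting error only). They divided into 6 higher and 1 lower, beside 50.2% of all genes kept with a CPM ratio above 1. The components other than C3 had CPM ratios between 1.05 (C1qa) and 1.38 (C6), and C3 was at 0.984. None reached 1.5-fold in either direction. Among all genes kept, 5.21% were at least 1.5-fold higher and 4.91% at least 1.5-fold lower. At such shares a list of 7 genes may well hold none. The median log2 CPM ratio of the 7 was 0.15, and that of all genes kept was 0.00, with the middle 50% of genes between −0.13 and 0.14. At this depth small ratios clear counting error easily. The 95% count interval lay wholly above 1 for 6 components and wholly below 1 for 1, but it also lay above 1 for 30.1% and below 1 for 29.7% of all genes kept.

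**Figure D1:**
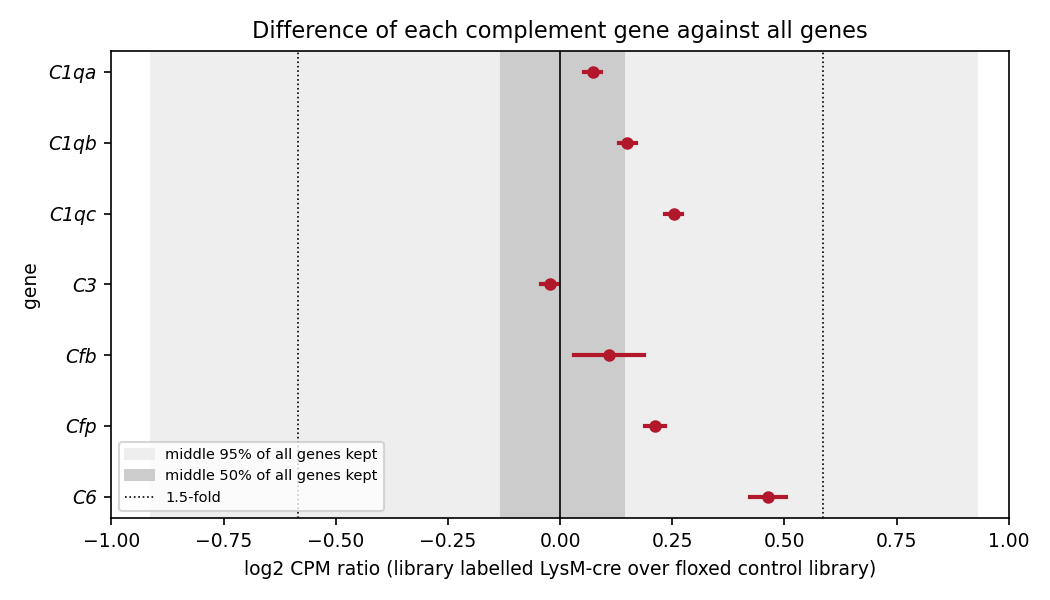
Log2 CPM ratio of each complement gene (x axis, library labelled LysM-cre over floxed control library) with its exact 95% interval for counting error (red bar), over the middle 50% (dark grey) and middle 95% (light grey) of all 12526 genes kept. All 7 genes lie inside the 1.5-fold lines (dotted) and inside the middle 95% of genes, with C6 farthest to the right at 0.46 and C3 just left of 0.

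The C1q chains were among the most abundant transcripts in both libraries and all exceeded the control in the library labelled LysM-cre, by unequal amounts. The 3 genes sit side by side on the minus strand of chromosome 4 (mm10, as in the deposited table) and encode the A, B and C chains, which assemble in equal numbers into one C1q molecule. C1qa (ENSMUSG00000036887, 136895917 to 136898803) measured 655 FPKM (45405 counts) in the library labelled LysM-cre and 623 FPKM (43257 counts) in the control (CPM ratio 1.05, 95% interval 1.04 to 1.07). C1qb (ENSMUSG00000036905, 136880129 to 136886187) measured 596 FPKM (43210 counts) in the library labelled LysM-cre and 537 FPKM (39013 counts) in the control (CPM ratio 1.11, 1.09 to 1.13). C1qc (ENSMUSG00000036896, 136889804 to 136893065) measured 379 FPKM (48758 counts) in the library labelled LysM-cre and 318 FPKM (40985 counts) in the control (CPM ratio 1.19, 1.18 to 1.21). By mean FPKM these genes held ranks 54, 66 and 127 among the 12526 genes kept. The A chain gene differed least and the C chain gene most, and their intervals do not overlap. Counts of C1qc per count of C1qa were 1.07 in the library labelled LysM-cre and 0.947 in the control, a change of 1.13-fold (95% interval 1.11 to 1.15, counting error only). Among all genes kept, the ratio of C1qa lay at percentile 64.6, that of C1qb at percentile 76.0 and that of C1qc at percentile 85.2.

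The lower FPKM of C1qc came with a longer length in the denominator. The lengths implied by counts and FPKM matched the union of all annotated exons (GENCODE M21, mm10) up to a common factor of 1.12 in every component. For C1qc that union is 1931 bases, because a second, non-coding transcript adds sequence, while its longest coding transcript is 1203 bases. C1qa (1040 bases) and C1qb (1088 bases) have 1 transcript each. Per base of the longest coding transcript, on the same depth scale, C1qc rescaled to 608 in the library labelled LysM-cre and 510 in the control. The B and A chains kept their deposited 596 and 655 FPKM in the library labelled LysM-cre, so on this scale the chains lie within a narrower range. C1qc was at 0.928 of C1qa in the library labelled LysM-cre and 0.819 in the control by coding length, and by deposited FPKM at 0.578 (labelled LysM-cre) and 0.510 (control). The ratio of each gene between libraries does not use its length.

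**Figure D2:**
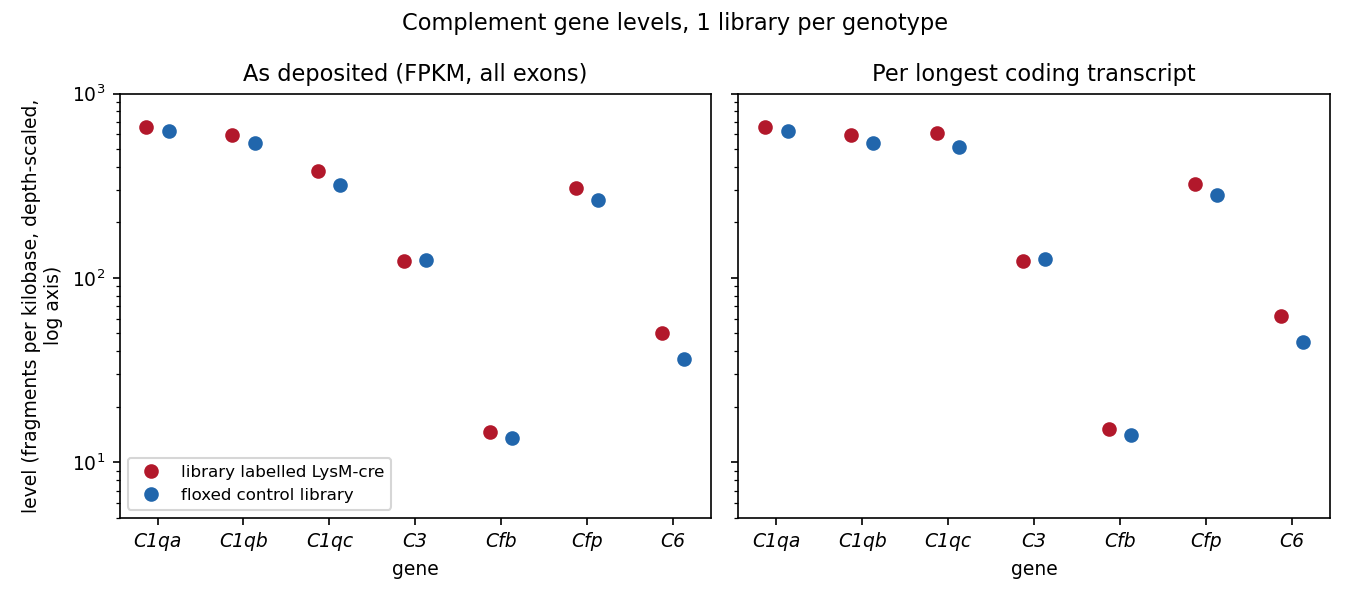
Level of each complement gene (y axis, fragments per kilobase, depth-scaled, log scale) in the library labelled LysM-cre (red) and the floxed control library (blue), with length taken as all annotated exons as deposited (left) or as the longest coding transcript (right). On the right C1qc, at 608 (labelled LysM-cre) and 510 (control), moves up to the other C1q chains. C6 moves to 61.9 (labelled LysM-cre) and 44.9 (control), and the other genes move less.

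Markers of macrophages, the cells best known for C1q, differed in the same direction as the C1q chains. Of 19 macrophage markers kept, 15 had a CPM ratio above 1 and 4 below 1, with a median log2 CPM ratio of 0.11. Among all genes kept, 50.2% had a CPM ratio above 1. Their summed level was 2750 FPKM in the library labelled LysM-cre and 2470 FPKM in the control. The macrophage surface gene Adgre1, which encodes F4/80, had a CPM ratio of 1.11 (95% interval 1.09 to 1.13), the endosomal gene Cd68 of 1.12 (1.10 to 1.14), the efferocytosis receptor gene Mertk of 1.11 (1.09 to 1.14) and Csf1r of 1.05 (1.05 to 1.06). Across the whole list the ratios of the kept markers ran from 0.374 (Vsig4) to 2.93 (Marco, a scavenger receptor gene), and those of all C1q chains lie inside this range. Slc40a1, the iron exporter gene, at 1.19 and Cd5l at 1.26 were as high as C1qc or higher, while Trem2 at 0.913 and Fcgr1 at 0.948 were below 1 (Vsig4, Marco, Slc40a1, Cd5l, Trem2 and Fcgr1 were named after their values were seen). The summed FPKM of the C1q chains divided by that of the macrophage markers was 0.593 in the library labelled LysM-cre and 0.598 in the control. By summed counts the order was the other way. The summed CPM ratio was 1.12 (95% interval 1.11 to 1.13) for the C1q chains and 1.09 (1.08 to 1.09) for the macrophage markers. Neutrophil markers went the other way, with 3 of 14 higher and 11 lower (median −0.26). Their summed level was 11397 FPKM in the library labelled LysM-cre and 12994 FPKM in the control, and Ly6g, the neutrophil surface marker, had a CPM ratio of 0.703 (0.663 to 0.745). Monocyte markers were higher in 7 of 10 cases (median log2 CPM ratio 0.09), with a summed CPM ratio of 1.09 (95% interval 1.09 to 1.10). Their single ratios ran from 0.872 (Nr4a1) to 9.99 (Cx3cr1), with 3 below 1. Cx3cr1, with 18508 counts in the library labelled LysM-cre and 1856 in the control, weighs on that sum. Nr4a1 and Cx3cr1 were named after their values were seen, and Csf1r is on both the monocyte and macrophage lists. Eosinophil markers were higher in 8 of 8, with a median of 0.63 and a summed ratio of 1.35 (1.33 to 1.37). The interval lay above 1 for 7 of them, while Ear1 had 80 counts in each library (1.00, 0.726 to 1.38). At 1.5-fold 4 were higher, beside 5.21% of all genes kept. B and plasma cell markers were lower in 8 of 9, with a summed ratio of 0.676 (0.672 to 0.679). Ighm, with 170979 counts in the library labelled LysM-cre and 358894 in the control (0.477), weighs heavily on that sum. The higher gene was Jchain, with 93047 counts (labelled LysM-cre) and 42817 (control), a ratio of 2.18. Ear1, Ighm and Jchain were named after their values were seen. Dendritic cell markers (2 of 6 higher, median −0.03) and T and NK cell markers (3 of 7 higher, median −0.02) showed no common direction gene by gene. Their summed ratios were 1.08 (1.06 to 1.10) for dendritic cells and 1.02 (1.01 to 1.04) for T and NK cells. Itgax, with 16479 counts in the library labelled LysM-cre and 14138 in the control, weighs on the dendritic cell sum. The libraries thus differed in markers of several cell types, some by more than the complement components did, and the part of these cell types in the complement ratios was not tested.

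Promoter sequences of C1qb and C1qc are shown as the neighbouring genes that stood higher together, and that of C6 as the component with the largest ratio. Each covers 250 bases before to 50 bases after the RefSeq gene start (GRCm38.p6, 300 bases, 5′ to 3′ on the gene's strand), and capitals mark matches on either strand to GAGGAA, the core of sites for the myeloid ETS factor PU.1. They lie at chr4:136886151-136886450 on the minus strand (C1qb), chr4:136892865-136893164 on the minus strand (C1qc) and chr15:4726960-4727259 on the plus strand (C6). The RefSeq starts of C1qc and C6 lie inside the gene rows of the deposited table. Most of the C1qc window falls within its row (136889804 to 136893065) and so is not upstream of the gene as counted.
C1qb: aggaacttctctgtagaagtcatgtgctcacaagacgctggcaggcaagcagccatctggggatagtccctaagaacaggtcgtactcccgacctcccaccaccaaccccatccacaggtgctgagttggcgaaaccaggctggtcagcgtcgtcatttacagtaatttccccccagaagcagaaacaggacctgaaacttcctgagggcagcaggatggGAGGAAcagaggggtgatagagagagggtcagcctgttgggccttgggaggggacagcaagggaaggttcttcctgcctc
C1qc: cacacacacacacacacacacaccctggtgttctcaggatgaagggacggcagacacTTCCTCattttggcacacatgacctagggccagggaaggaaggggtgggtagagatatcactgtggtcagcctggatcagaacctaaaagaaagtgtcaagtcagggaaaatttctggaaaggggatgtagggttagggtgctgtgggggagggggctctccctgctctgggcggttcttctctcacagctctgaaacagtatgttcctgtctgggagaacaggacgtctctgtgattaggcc
C6: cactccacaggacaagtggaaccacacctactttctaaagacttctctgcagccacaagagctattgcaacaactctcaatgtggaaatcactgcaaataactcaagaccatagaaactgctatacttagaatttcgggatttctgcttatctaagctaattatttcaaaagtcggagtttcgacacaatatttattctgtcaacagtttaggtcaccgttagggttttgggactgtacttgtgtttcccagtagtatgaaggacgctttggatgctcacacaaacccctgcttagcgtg
Entries were matched for 5 components, and C1qa and Cfb are not among them. GAGGAA matched 1 time in C1qb, 1 time in C1qc and 2 times in Cfp, and not in C3 or C6, while 28.3% of 32851 promoter windows of this length hold it. TGCTGA, a MAF half-site core, matched 1 time each in C1qb and C3 (19.5% of windows). TTGCNNAA, a C/EBP core, matched 1 time in C3, with its first base 45 bases before the start (10.8% of windows). No match overlapped another. These short strings are common, and a match describes the window only.

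The alternative pathway genes split, with properdin higher, factor B slightly higher and C3 nearly level. Cfp (ENSMUSG00000001128, chromosome X, 20925454 to 20931555, minus strand) encodes properdin, which holds the alternative C3 convertase together. It measured 306 FPKM (35392 counts) in the library labelled LysM-cre and 264 FPKM (30617 counts) in the control (CPM ratio 1.16, 95% interval 1.14 to 1.18). That is percentile 82.1 of ratios among all genes kept. Of the cell types known for properdin, monocyte markers were mixed (7 higher, 3 lower) and neutrophil markers mostly lower (3 higher, 11 lower). The part of these cells in the Cfp ratio was not tested. C3 (ENSMUSG00000024164, chromosome 17, 57203970 to 57228136, minus strand) encodes the protein on which all pathways converge. It measured 124 FPKM (42421 counts) in the library labelled LysM-cre and 126 FPKM (43184 counts) in the control (CPM ratio 0.984, 0.971 to 0.997). Counts of Cfp per count of C3 were 0.834 in the library labelled LysM-cre and 0.709 in the control, a change of 1.18-fold (95% interval 1.15 to 1.20). Cfb (ENSMUSG00000090231, chromosome 17, 34856374 to 34862518, minus strand) encodes the protease precursor of the alternative convertase and was the least abundant of the 7. It measured 14.7 FPKM (2767 counts) in the library labelled LysM-cre and 13.6 FPKM (2572 counts) in the control (CPM ratio 1.08, 1.02 to 1.14). The Cfb row overlaps Gm20547 on the same strand, with 2 counts in the library labelled LysM-cre and 0 in the control, and Mir6972, with 4 counts (labelled LysM-cre) and 1 count (control). C3 overlaps Mir6978, with 1 count in each. Summing these rows left both ratios within their intervals. Cfd, the protease that cleaves factor B and is best known from fat cells, had few reads, with 14 counts in the library labelled LysM-cre and 12 in the control. Transcripts for C3, factor B and properdin were therefore present together with hardly any for factor D.

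C6 had the largest ratio of the components and stood without its partners. C6 (ENSMUSG00000022181, chromosome 15, 4727175 to 4814967, plus strand) encodes the first protein that C5b recruits into the membrane attack complex. It measured 50.1 FPKM (11872 counts) in the library labelled LysM-cre and 36.3 FPKM (8630 counts) in the control (CPM ratio 1.38, 95% interval 1.34 to 1.42). Its log2 CPM ratio of 0.46 lay at percentile 92.8 of all genes kept and at percentile 95.8 among genes averaging at least 5 FPKM. It was therefore below the size that 5.21% of genes reached. Counts of C6 per count of C1qc were 0.243 in the library labelled LysM-cre and 0.211 in the control, so its difference also exceeded that of C1qc (change 1.16-fold, 95% interval 1.12 to 1.19). Of the 6 other terminal pathway genes, 1 was kept. That was C8g, the lipocalin subunit of C8, with 1.35 FPKM in the library labelled LysM-cre and 1.46 FPKM in the control. Hc, which encodes C5, measured 0.147 FPKM in the library labelled LysM-cre and 0.177 FPKM in the control. The pore-forming subunit gene C8a measured 0.405 FPKM in the library labelled LysM-cre and 0.214 FPKM in the control, and C9, which lines the pore, at 0.288 FPKM (labelled LysM-cre) and 0.132 FPKM (control). C7, which binds after C6, had 0 counts in both libraries, which allows up to 0.0505 CPM (3 counts, counting error only) in the library labelled LysM-cre and 0.0504 CPM in the control, beside 199.9 CPM (labelled LysM-cre) and 145 CPM (control) for C6. C6 was thus well expressed beside partners that were low or without counts.

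Liver cells, which make most plasma C3 and factor B, had marker transcripts in both libraries. Of 5 hepatocyte markers 4 were kept, and their summed level was 51.3 FPKM in the library labelled LysM-cre and 51.6 FPKM in the control. The albumin gene Alb, named after its values were seen, measured 33.7 FPKM in the library labelled LysM-cre and 35.3 FPKM in the control (CPM ratio 0.956, 95% interval 0.921 to 0.993). In the control Alb was close to C6, at 36.3 FPKM. Of the hepatocyte markers kept, 3 had a CPM ratio above 1 and 1 below 1 (median log2 CPM ratio 0.07). Their summed CPM ratio was 0.992 (95% interval 0.960 to 1.02). Fibroblast and endothelial markers (1 of 9 kept) and epithelial tumour markers (2 of 7 kept, 3 at 0 in both libraries) were low, with epithelial marker sums of 4.07 FPKM in the library labelled LysM-cre and 3.85 FPKM in the control. The fibroblast and endothelial sum was 19.9 FPKM (labelled LysM-cre) and 18.6 FPKM (control), most of it from the endothelial and leukocyte gene Pecam1 at 17.3 FPKM (labelled LysM-cre) and 16.2 FPKM (control). The fibroblast genes were below 1 FPKM but mostly higher in the library labelled LysM-cre. Among them the collagen gene Col3a1 had 127 counts in the library labelled LysM-cre and 32 in the control, Col1a2 had 65 (labelled LysM-cre) and 26 (control), Col1a1 had 82 (labelled LysM-cre) and 53 (control), Dcn had 24 (labelled LysM-cre) and 0 (control), and Pdgfra had 13 (labelled LysM-cre) and 0 (control), whereas Pdgfrb had a CPM ratio of 1.06. These marker genes, too, were named after their values were seen. The part of these cells in the complement levels was not tested.

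The other complement genes place the components within the cascade. Of 53 other complement genes found, 23 were kept, 16 with a higher value in the library labelled LysM-cre and 7 with a lower one (median log2 CPM ratio 0.12). Among all genes kept, 50.2% were higher. The 95% count interval lay above 1 for 13 of the 23 and below 1 for 5, beside 30.1% and 29.7% of all genes kept. At 1.5-fold 1 was higher and 2 were lower, beside 5.21% and 4.91% of all genes kept.

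Downstream of C1q, the classical pathway was sparsely transcribed. C1ra, the protease that C1q activates first, measured 2.64 FPKM in the library labelled LysM-cre and 2.89 FPKM in the control (CPM ratio 0.913, 95% interval 0.810 to 1.03). Its partner protease gene C1s1 measured 0.267 FPKM in the library labelled LysM-cre and 0.194 FPKM in the control, far below the C1q chains. C2, which supplies the protease of the classical C3 convertase, was higher, with 10.2 FPKM in the library labelled LysM-cre and 7.88 FPKM in the control (1.29, 1.22 to 1.37). The C4 genes went opposite ways, although reads of these near-identical copies may be split between rows and their values are uncertain. C4b measured 3.61 FPKM in the library labelled LysM-cre and 5.26 FPKM in the control (0.686, 0.640 to 0.735), while C4a measured 1.16 FPKM in the library labelled LysM-cre and 0.864 FPKM in the control (1.34, 1.17 to 1.54). The lectin pathway recognition genes of the ficolin family were both higher. Fcna, ficolin A of macrophages, was abundant, with 436 FPKM in the library labelled LysM-cre and 356 FPKM in the control (1.23, 1.21 to 1.24). By deposited FPKM it stood above C1qc and below the other C1q chains. Per base of the longest coding transcript it stood below all C1q chains in both libraries. Fcnb, ficolin B of granulocyte precursors, measured 24.5 FPKM in the library labelled LysM-cre and 20.5 FPKM in the control (1.20, 1.12 to 1.27). The proteases that ficolins activate were almost without counts, with 23 in the library labelled LysM-cre and 14 in the control for Masp1, and 9 (labelled LysM-cre) and 7 (control) for Masp2. Of the other recognition genes listed for this pathway, the collectin gene Colec12 was below 1 FPKM. It measured 0.877 FPKM in the library labelled LysM-cre and 0.783 FPKM in the control. The rest were at or near 0. Mbl1, a mannose-binding lectin gene, had 21 counts in the library labelled LysM-cre and 28 in the control, Mbl2 had 0 (labelled LysM-cre) and 19 (control), and the collectin genes Colec10 and Colec11 had 0 in both. The C1q chains and Fcna were thus abundant beside few transcripts of the proteases they activate.

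**Figure D3:**
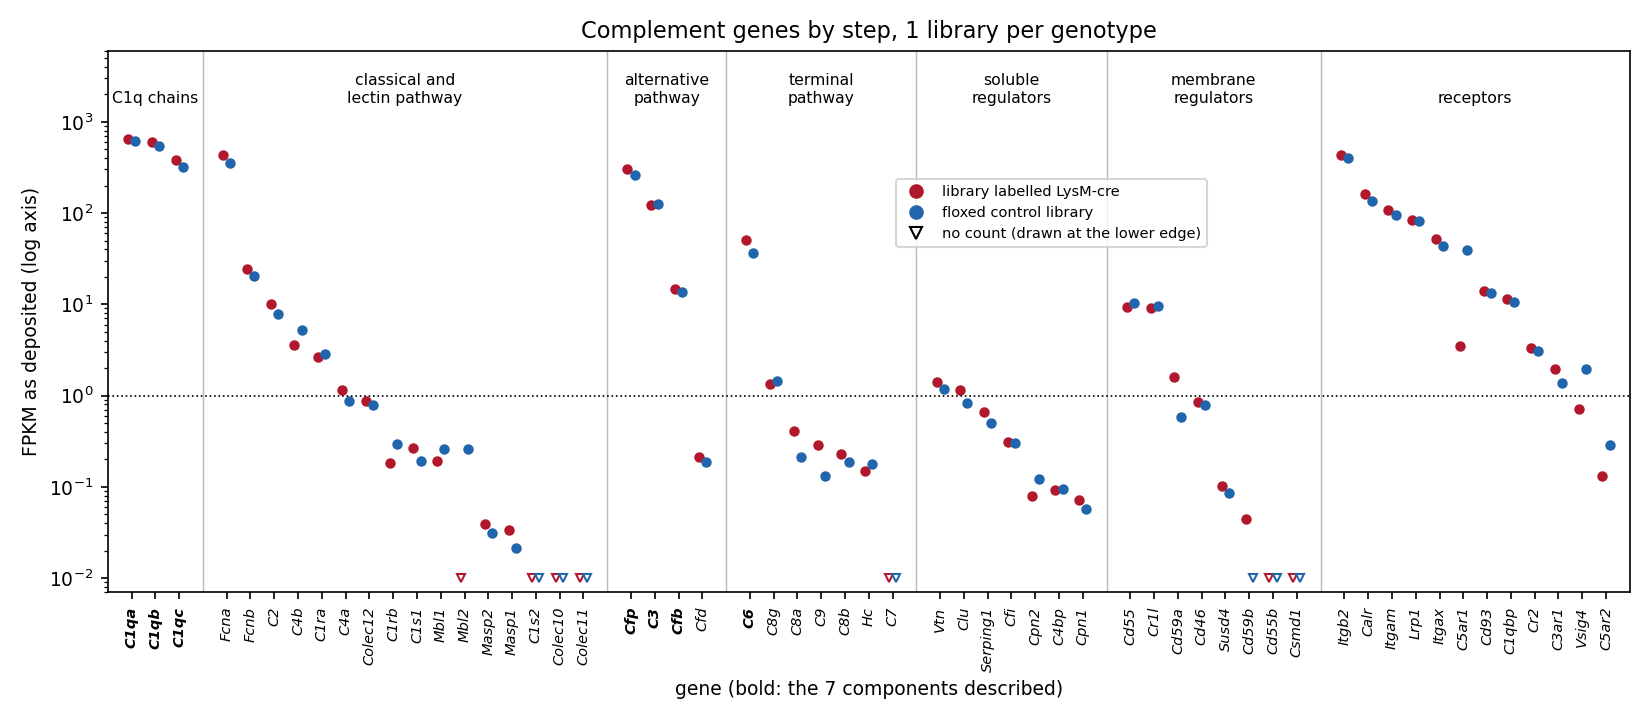
Deposited FPKM (y axis, log scale) of 57 complement genes by step in the library labelled LysM-cre (red) and the floxed control library (blue), with open triangles for no count and the dotted line at 1 FPKM. The C1q chains, Fcna, Cfp, C3 and C6 stand well above the other soluble components of their steps, and C5ar1 is the receptor with the widest gap between libraries.

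Regulators differed little, apart from a low one. Cd55, which speeds the decay of C3 convertases, measured 9.30 FPKM in the library labelled LysM-cre and 10.3 FPKM in the control (CPM ratio 0.903, 95% interval 0.859 to 0.949). Cr1l, the mouse membrane regulator Crry, measured 9.13 FPKM in the library labelled LysM-cre and 9.58 FPKM in the control (0.953, 0.921 to 0.987). Cd59a, which blocks the assembly of C9, was the gene past 1.5-fold on the higher side, on 191 counts in the library labelled LysM-cre and 72 in the control (2.66, 2.02 to 3.54), and its near-identical copy Cd59b makes this value uncertain. Of the soluble regulators, the vitronectin gene Vtn had 1.39 FPKM in the library labelled LysM-cre and 1.19 FPKM in the control (1.17, 0.942 to 1.45). The membrane regulators Cd55 and Cr1l were thus slightly lower where most of the components were slightly higher.

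Receptors that read C1q and C3 products were mostly a little higher. The integrin chain genes of complement receptors 3 and 4 had CPM ratios of 1.07 for Itgb2 (95% interval 1.06 to 1.08), 1.13 for Itgam (1.11 to 1.15) and 1.17 for Itgax (1.14 to 1.19). Genes linked to C1q binding were Calr, which encodes calreticulin (1.20, 1.18 to 1.22), Lrp1 (1.01, 0.996 to 1.01), C1qbp (1.06, 0.995 to 1.12) and Cd93 (1.06, 1.03 to 1.10). Cr2, a C3d receptor of B cells, had a ratio of 1.09 (1.02 to 1.16). Vsig4, a macrophage receptor for C3b, was low and lower still in the library labelled LysM-cre, on 72 counts against 193 in the control (0.374, 0.281 to 0.492). Among the anaphylatoxin receptors, C3ar1 had a ratio of 1.43 (1.26 to 1.63), whereas C5ar1 was at 0.0890 (0.0818 to 0.0968). The 2 genes past 1.5-fold on the lower side were therefore both receptors, Vsig4 and C5ar1, while C3, the source of the Vsig4 ligand, stood nearly level.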

How the data were processed

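Bulk poly(A) RNA-seq of MDSCs was analysed for 2 libraries, 1 per genotype, grouped by the genotype label. The treatment label of the LysM-cre sample reads MC39 where that of the control reads MC38. The submitters' processing notes list HISAT2 2.0.4, StringTie 1.3.4d and cutadapt 1.9 beside DESeq2 and edgeR, on build mm10. No source used here states strand handling, multi-mapping reads or each tool's role. The deposited count values are whole numbers per gene, named counts in the column headers and read here as unnormalized. The FPKM values were deposited already scaled for depth and length by the authors, with 0.0001 where nothing was counted, read here as 0. The table's 8 value columns without a matching sample label were left out.

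Counts were scaled to library totals (CPM), and the ratio was given with an exact 95% Clopper-Pearson interval of the counts. Ratios of count ratios have approximate normal intervals on the log scale. Since PCR copies and the ends of a pair are no independent molecules, intervals cover counting error only. Genes averaging at least 1 FPKM were kept, 0 counts were set to 3 when ratios were classed, and 1.5-fold was a fixed rule of size. Named genes are the 7 components, the other complement genes kept, the first 4 macrophage and neutrophil markers, Mettl3 and overlapping rows. Other complement genes below that level (C1s1, Cfd, Hc, C7, C8a, C9, Masp1, Masp2, Mbl1, Mbl2, Colec10, Colec11, Colec12) were named after their values were seen. The members, lists and motifs were chosen with earlier results of these data, and for the motifs the sequences, known. TMM factors were 0.999 (labelled LysM-cre) and 1.00 (control). Values of some listed genes are not reported here. The steps were tested on simulated data. Alternatives were other scalings, FPKM with pseudocounts, TPM, other minimums and folds, and overlapping rows summed. Software was R 4.3.3 with edgeR 4.0.16, and Python 3.11.15 with scipy 1.17.1, pandas 2.3.3, numpy 2.4.6 and matplotlib 3.10.9.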

Additional observations from a re-analysis of the deposited data

How the results depend on the processing

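Of 79 values recomputed under alternative settings, 77 stayed within the counting interval or within 1.5 times the reported count, and none changed direction. Some of these values could not differ, so the tally overstates the agreement. C1qa, C1qb, C1qc, Cfp and C6 overlap no other row, so summing rows left them as they were. All components passed each minimum on FPKM, and their count of 0 past 1.5-fold had to stay 0 at 2-fold. The log2 CPM ratio ranged from 0.05 to 0.07 for C1qa, 0.13 to 0.15 for C1qb, 0.24 to 0.25 for C1qc, −0.04 to −0.02 for C3, 0.09 to 0.11 for Cfb, 0.19 to 0.21 for Cfp and 0.44 to 0.46 for C6. The number of other complement genes past 1.5-fold, 3 as reported, was 11 with no filter on low values and 1 with a minimum mean of 5 FPKM, since these settings test other numbers of genes. The C1qc level relative to C1qa, rescaled by coding transcript length after the data were seen, was 0.928 in the library labelled LysM-cre and 0.819 in the control. No paired analysis was possible because each genotype had 1 library, and no library could be left out. Genes with few counts, such as Cfd, are limited by depth.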
